A study of Mus musculus with 5 samples.

Results

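The transcripts described here are those of 9 mouse complement genes, C1qa, C1qb, C1qc, C2, C4b, C3, Cfb, Cfp and C3ar1, chosen by name from the 24527 genes of a bulk RNA-seq count table, in which all 9 were found. The table holds 5 prostate tumor samples from TripleTg mice, 3 labelled castrated and 2 labelled intact, and the comparison asks how the tumor transcriptome differs after androgen withdrawal. Every mouse carried the same alleles, the hHGFtg, H11 hMET/+, Ctnnb1 L(Ex3)/+ and PB Cre4 of the study's methods. The human HGF transgene is expressed ubiquitously, whereas human MET, behind a CAG promoter and a floxed stop cassette, and stabilized β-catenin are switched on by the probasin-driven Cre in prostate epithelium, so stromal and immune cells of the tumors are not recombined by design. The background was a mix of C57BL/6 and C3H SCID, strains of which the latter carries a defect of lymphocyte maturation. Castration was done at the age of 4 months, and tumors were taken when the mice were 8 months old, with intact mice of the same age and genotype as the comparison. The total count was 28015507, 18951782 and 20492061 for castrated replicates 1 to 3, and the intact replicates had 21560355 and 22853501. The labels do not say whether each library came from a separate animal, so p-values measure the spread between these samples, which need not be that between animals.

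Complement is a cascade of plasma proteins that tags surfaces and calls in phagocytes. C1q, a hexamer built from A, B and C chains, recognizes antibody or altered cells in the classical pathway, whose proteases then assemble a C3 convertase from C4 and C2. The alternative pathway builds its own convertase from C3 and factor B and is stabilized by properdin, and the released fragment C3a acts through its receptor on myeloid cells. Liver is the main source of circulating C3, C4, C2 and factor B, but macrophages and fibroblasts also make components in tissue, and C1q is made mostly by macrophages and dendritic cells.

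A pair of the libraries stood apart from the others of their group in ways that bear on the complement values. Castrated replicate 3 held hepatocyte transcripts. Alb, encoding serum albumin, had 284121 counts there, the highest count of any gene and 1.39% of the library, against 1393 and 36 counts in the other two castrated libraries and 258 and 15 counts in the intact libraries. Intact replicate 2 held secretory transcripts of prostate epithelium, with 1267.9 CPM (counts scaled to a common library total) of Tgm4, the prostate transglutaminase, against at most 0.43 CPM in the other 4 samples. All 6 epithelial markers, led by Krt8, were detected, whereas among the 6 prostate secretory markers Msmb had 0 counts in every library, a limit of at most 3 counts per library. Where a result rested on either library, the value without that library or the level in each sample is therefore given below.

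For C1qb, C1qc, C3ar1, C3 and Cfp the RefSeq promoter was at hand, and the last 160 bases before the annotated start are shown because the C1q chains and Cfp followed close profiles over the samples and C3 another. Each sequence lies on the minus strand of GRCm38.p6, at chr4:136886201-136886360 (C1qb), chr4:136892915-136893074 (C1qc), chr6:122856158-122856317 (C3ar1), chr17:57228137-57228296 (C3) and chrX:20931556-20931715 (Cfp), and is printed 5′ to 3′ with motif matches in capitals.
C1qb: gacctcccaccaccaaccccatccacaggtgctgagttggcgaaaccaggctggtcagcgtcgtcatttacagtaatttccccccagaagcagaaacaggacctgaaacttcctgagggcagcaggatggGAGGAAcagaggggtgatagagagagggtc
C1qc: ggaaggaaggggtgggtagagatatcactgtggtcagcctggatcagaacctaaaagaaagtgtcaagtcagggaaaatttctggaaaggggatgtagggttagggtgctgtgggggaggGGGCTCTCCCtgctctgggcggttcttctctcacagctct
C3ar1: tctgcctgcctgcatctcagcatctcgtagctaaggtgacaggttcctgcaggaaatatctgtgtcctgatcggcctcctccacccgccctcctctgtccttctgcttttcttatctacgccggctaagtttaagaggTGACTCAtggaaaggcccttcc
C3: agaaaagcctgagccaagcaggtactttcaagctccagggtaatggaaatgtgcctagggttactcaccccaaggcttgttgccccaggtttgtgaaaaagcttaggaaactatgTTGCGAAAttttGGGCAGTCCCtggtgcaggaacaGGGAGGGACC
Cfp: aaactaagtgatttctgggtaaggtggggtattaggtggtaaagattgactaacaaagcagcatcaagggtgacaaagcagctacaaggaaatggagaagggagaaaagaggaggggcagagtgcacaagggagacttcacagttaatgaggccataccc
The 250 bases upstream of each start were searched on both strands for an ETS core as bound by PU.1 (GAGGAA), a GAS element (TTCNNNGAA), C/EBP (TTGCNNAA), AP-1 (TGANTCA), a kappaB site and an ISRE. Positions are counted back from -1, the base before the start, and mark the leftmost base of a match. GAGGAA was present in C1qb at -30 and in C1qc at -193, the latter outside the printed part, and in 23.3% of 32851 mouse promoters. The C/EBP letters stood in C3 at -45, and 9.56% of promoters hold them. Matches to kappaB were found at -33 and -10 in C3 and at -40 in C1qc, with further ones beyond the printed part in C3 at -197 and in C1qb at -191 and -190, the last pair overlapping on opposite strands, and 17.6% of promoters hold this pattern. AP-1 letters occurred in C3ar1 at -22 and in 6.75% of promoters. No GAS or ISRE letters, present in 7.02% and 2.98% of promoters, were in these windows, and Cfp held none of the motifs. A match describes letters only.

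In the castrated samples, 8 of the 9 complement genes lay above both intact samples in every library, and Cfb was the exception. C4b and C3ar1 had the largest fold differences, followed by C3, and C2 had the smallest. The order depended on single libraries, since C3 had the largest log2 fold change, 2.36, without castrated replicate 2 and, at 1.25, lay below Cfp and the C1q chains without castrated replicate 3. All 9 genes passed the filter on low counts and had a log2 fold change above 0, with a median of 1.43 against -0.03 over the 14612 genes tested. Across all tested genes, 17.8% had every castrated sample above both intact samples and 47.9% had a log2 fold change above 0. None of the 9 genes reached an adjusted p under 0.05 in edgeR (quasi-likelihood test, Benjamini-Hochberg adjustment over all tested genes), and neither did any other gene (0%). At an unadjusted p under 0.05 and a log2 fold change above 1, 7 of the 9 (all but C2 and Cfb) were past the threshold, against 7.66% of all tested genes. DESeq2 called 5 of the 9 higher at an adjusted p under 0.05 and a log2 fold change above 1 (C4b, Cfp, C3ar1, C1qb and C3), against 4.81% of all tested genes, edgeR's likelihood ratio test called only C4b (1.89% of all tested genes higher), and limma voom called 0 with 7 at the unadjusted threshold (4.9% of all tested genes). The unadjusted count depended on single libraries. Without intact replicate 1 it was 1 (C4b), against 11% of all genes tested in that fit, about the same share. It was 2 (C4b and Cfp) without intact replicate 2, against 6.34%, and 3 (C3ar1, C4b and Cfp) without castrated replicate 2, against 4.5%. Without castrated replicate 3, where C3 dropped out, it was 6, against 4.09%, and without castrated replicate 1 it was 7, against 9.77%. In bulk tissue, more cells of a type and more RNA per cell cannot be told apart.

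**Figure D1:**
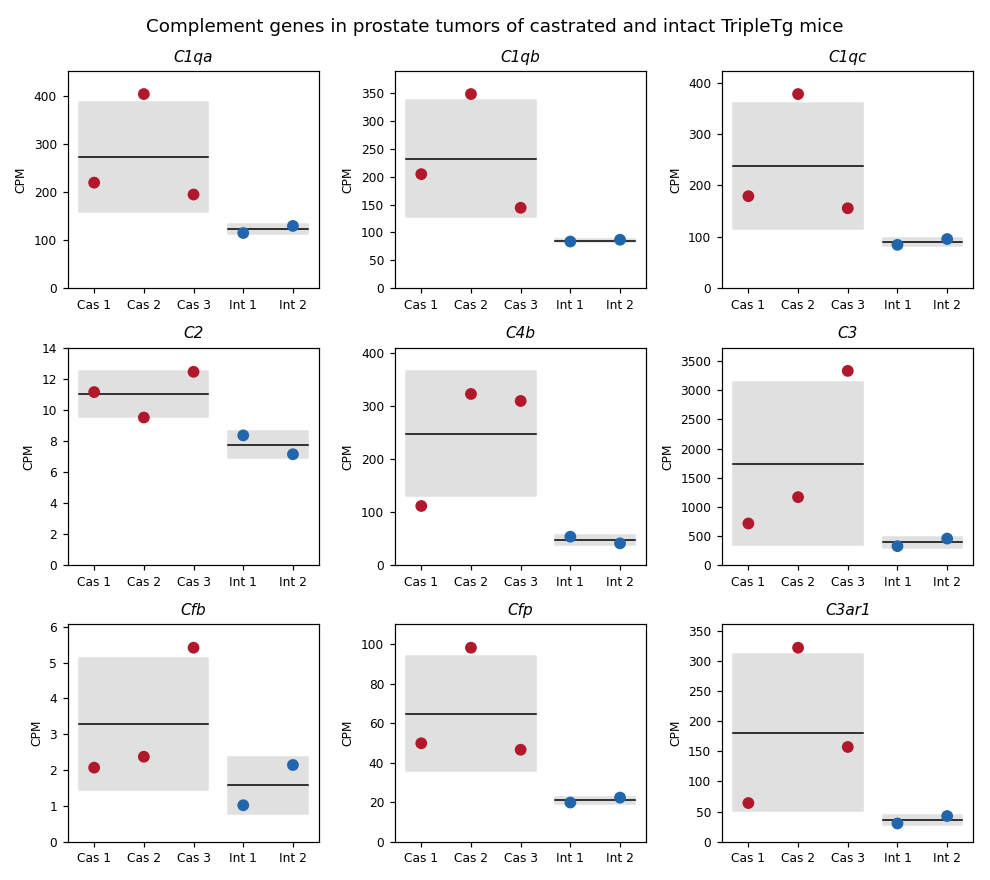
CPM of the 9 complement genes (vertical axes, each from 0) in castrated replicates 1 to 3 (Cas, red points) and intact replicates 1 and 2 (Int, blue points), with a line at the group mean and a gray band of ± 1 SD. The red points lie above both blue points for every gene but Cfb, and castrated replicate 2 is the highest for 6 genes whereas castrated replicate 3 is the highest for C2, C3 and Cfb.

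C1qa encodes the A chain of C1q and lies on chromosome 4 (mm10, chr4:136895916-136898844, minus strand). It measured 219.4, 403.6 and 194.7 CPM in castrated replicates 1 to 3 and 114.6 and 129.3 CPM in the intact samples. Both intact samples were below every castrated sample, with castrated replicate 2 well above the others. The log2 fold change was 1.14 ± 0.40 (SE, n = 3 and 2), with an adjusted p of 0.312 in edgeR's quasi-likelihood test. C1qb, the B chain gene at chr4:136880126-136886200, measured 204.5, 348.1 and 144.1 CPM in castrated samples against 83.6 and 86.8 CPM in intact ones. Castrated replicate 2 was again the highest, and the groups did not overlap. C1qb had a log2 fold change of 1.43 ± 0.42 (SE), with adjusted p-values of 0.297 in edgeR and 0.0408 in DESeq2. C1qc, the C chain gene between the others at chr4:136889802-136892914, had 179.1, 378.1 and 155.6 CPM against 84.3 and 95.7 CPM. As for the other chains, no castrated value fell into the intact range. C1qc had a log2 fold change of 1.38 ± 0.47 (SE) and an edgeR adjusted p of 0.309.

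The 3 chain genes, which sit within a few kilobases of each other with 3601 and 3001 bases between neighbours, followed similar profiles over the 5 samples. After centring each gene's log2 CPM, C1qb and C1qc differed by a root mean square of 0.12 and C1qa and C1qc by 0.13, the closest pairs among the 9 genes, with C1qc and Cfp next at 0.14. C1qb and Cfp differed by 0.16 and C1qa and C1qb by 0.17, so not every pair of chains was closer than a chain and Cfp. Per length, C1qa made up 36.3%, 35.6% and 39.3% of the TPM (a level scaled by gene length and library, computed from the deposited lengths) of the chains in castrated samples and 40.5% and 41.4% in intact ones. The A chain thus took a slightly smaller share in each castrated sample than in either intact one. Without castrated replicate 2 the log2 fold changes were 0.73 (C1qa), 1.0 (C1qb) and 0.86 (C1qc), and without castrated replicate 3 they were 1.34, 1.69 and 1.62.

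The summed CPM of the C1q chains was 603, 1130 and 494 in castrated samples and 283 and 312 in intact samples. The 14 macrophage markers, also highest in castrated replicate 2, summed to 3178, 9868 and 4101 CPM against 1705 and 1953 CPM. All 14 had a log2 fold change above 0, 12 had every castrated sample above both intact ones (47.9% and 17.8% of all tested genes), and Lyz2, the macrophage lysozyme, was the most abundant at 1632, 4659 and 1667 CPM against 578 and 1010 CPM. Ctss was next, at 482, 2336 and 873 CPM against 329 and 375 CPM. Lyz2 and Ctss together made up most of the sum in each sample. Ratios to macrophage CPM, here and below, therefore rest largely on these genes. None of the 14 markers was at 0 in all samples. The ratio of C1q to macrophage CPM was 0.190, 0.114 and 0.121 in castrated samples and 0.166 and 0.160 in intact samples, so the ranges overlapped. The part of macrophage content in the C1q difference was not tested.

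C4b encodes complement C4, the thioester protein cleaved by C1s to seed the classical C3 convertase (chr17:34728381-34743897, minus strand). It measured 111.3, 322.7 and 309.4 CPM in castrated samples and 53.3 and 40.7 CPM in intact samples. Castrated replicates 2 and 3 were alike and castrated replicate 1 was lower, yet still at 2.09 times the highest intact value. The log2 fold change of 2.39 ± 0.54 (SE) was the largest of the 9 genes, with an adjusted p of 0.289 in edgeR's quasi-likelihood test, 0.0150 in its likelihood ratio test and 0.00145 in DESeq2. It ranged from 2.15 to 2.75 as each sample was left out, and was 2.21 without castrated replicate 3. The ratio of C4b to fibroblast CPM was 0.0215, 0.0496 and 0.0342 in castrated samples against 0.0115 and 0.0158 in intact ones. That to macrophage CPM was 0.0350, 0.0327 and 0.0755 against 0.0313 and 0.0209. Neither ratio overlapped between groups, that to macrophage CPM only narrowly, with 0.0327 in castrated replicate 2 against 0.0313 in intact replicate 1. However, the 12 fibroblast markers did not move alike. Their log2 fold changes ran from -0.36 to 2.85, and 10 were above 0 (47.9% of all tested genes). Dcn, the most abundant, was at 2.35, near the 2.39 of C4b, whereas Col1a1, Col1a2 and Col3a1 were at -0.36, 0.01 and 0.09. The ratio to fibroblast CPM therefore depends on which markers are summed. The part of fibroblast or macrophage content in the C4b difference was not tested. C4a, a near-identical copy that encodes the sex-limited protein, had 34, 13 and 23 counts after castration and 56 and 52 in intact samples, against 3118, 6115, 6341, 1150 and 931 counts of C4b. The copy took at most 5.29% of the pair's counts, and how reads were split between them is uncertain.

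C2 encodes the protease subunit of the classical convertase (chr17:34862602-34882100, minus strand). Its 11.1, 9.5 and 12.4 CPM in castrated samples lay narrowly above the 8.35 and 7.13 CPM of intact samples, the lowest castrated value being 1.14 times the highest intact one. C2 had a log2 fold change of 0.49 ± 0.30 (SE), with an adjusted p of 0.481 in edgeR and 0.337 in DESeq2.

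C3, the central component on which all pathways converge, lies at chr17:57203967-57228136 on the minus strand. It had the highest CPM of the 9 genes in each sample, 712.5, 1165 and 3334 CPM in castrated samples and 323.2 and 453.3 CPM in intact samples. Castrated replicate 3 was 4.68 times castrated replicate 1, a wider spread than for any other of the 9 genes but C3ar1, and no castrated value overlapped the intact ones. Ranked by counts among all genes, C3 was number 119, 49 and 6 in the castrated libraries and 483 and 262 in the intact libraries. This gave C3 a log2 fold change of 2.13 ± 0.79 (SE), with an adjusted p of 0.321 in edgeR and 0.0451 in DESeq2. Castrated replicate 3, the sample with the most C3, was also the one with hepatocyte transcripts, whose 8 markers summed to 22515 CPM there against 63.2, 4.54, 14.6 and 4.94 CPM in the others. Without it the log2 fold change of C3 was 1.25, with castrated replicates 1 and 2 still above both intact samples. The 12 fibroblast markers summed to 5169, 6503 and 9058 CPM in castrated samples and 4638 and 2577 CPM in intact samples, with the proteoglycan gene Dcn the most abundant and no marker at 0 in all samples. The ratio of C3 to fibroblast CPM was 0.138, 0.179 and 0.368 against 0.0697 and 0.176, overlapping between groups. The part of hepatocyte or fibroblast content in the C3 difference was not tested.

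Cfb encodes factor B, the protease of the alternative convertase, at chr17:34856374-34862514 on the minus strand, 87 bases from C2. At 2.07, 2.37 and 5.42 CPM in castrated and 1.02 and 2.14 CPM in intact samples, it was the least abundant of the 9 genes and the one whose groups overlapped, castrated replicate 1 lying below intact replicate 2. The log2 fold change was 1.0 ± 0.69 (SE), with an adjusted p of 0.526 in edgeR. It was 0.45 without castrated replicate 3 and 1.68 without intact replicate 2.

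Cfp encodes properdin, the stabilizer of the alternative convertase, a product of myeloid cells (chrX:20925454-20931555, minus strand). It measured 49.9, 98.4 and 46.7 CPM in castrated samples and 19.9 and 22.4 CPM in intact samples. Castrated replicates 1 and 3 were close together, replicate 2 was about as far above them as for the C1q chains, and the lowest castrated value was 2.08 times the highest intact one. The log2 fold change of 1.60 ± 0.42 (SE) had an adjusted p of 0.290 in edgeR and 0.0193 in DESeq2. Cfp over macrophage CPM was 0.0157, 0.00997 and 0.0114 against 0.0117 and 0.0115, overlapping between groups. The Cfp interval in the annotation overlaps 12 other entries on the same strand, among them long multi-copy genes and Mir3473a, and how reads shared with them were counted was not tested.

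C3ar1 encodes the receptor of C3a on myeloid cells (chr6:122847140-122856157, minus strand). It was at 64.3, 321.8 and 157.2 CPM in castrated samples and 30.4 and 42.7 CPM in intact samples. The castrated samples spread 5.01-fold, the widest of the 9 genes, with castrated replicate 1 nearest to the intact range and not within it. For C3ar1 the log2 fold change was 2.29 ± 0.74 (SE), with an adjusted p of 0.301 in edgeR and 0.0287 in DESeq2. It was 1.57 without castrated replicate 2 and 2.39 without castrated replicate 3. The ratio of C3ar1 to macrophage CPM, 0.0202, 0.0326 and 0.0383 against 0.0178 and 0.0219, also overlapped, through castrated replicate 1.

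**Figure D2:**
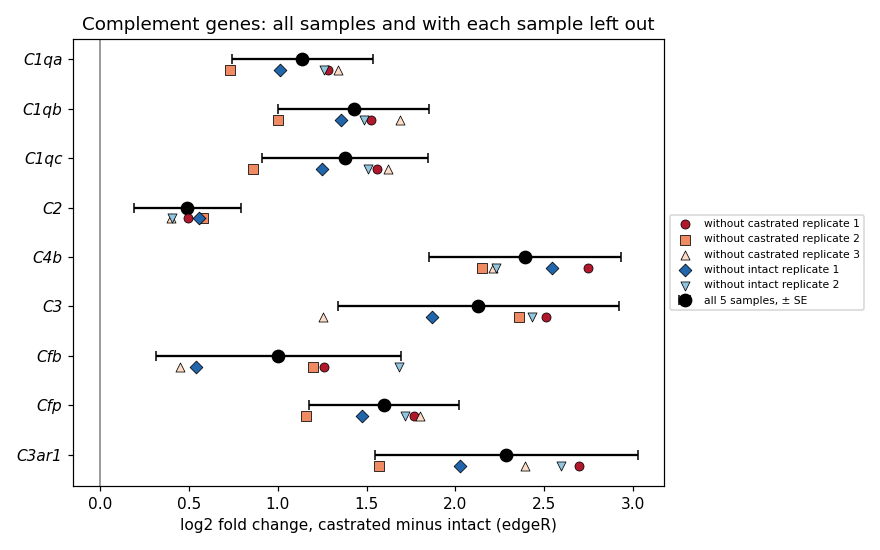
Log2 fold change (castrated minus intact, edgeR, horizontal axis) of each complement gene, with black points and bars for all 5 samples ± SE and colored symbols for the fit without 1 sample. Every symbol lies to the right of 0, and the C3 value moves from 2.13 to 1.25 without castrated replicate 3.

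Levels between genes were compared per length, in TPM. In the intact samples C1qa was highest at 245 ± 12.3 TPM (SD, n = 2), followed by C1qc at 185 ± 8.63, C1qb at 168 ± 18.4 and C3 at 163 ± 16.9. The ranges of C1qc and C1qb overlapped, as did those of C1qb and C3. Cfp stood at 28.1 ± 1.46 TPM, above C4b at 19.4 ± 6.21 and C3ar1 at 18.2 ± 1.91, which overlapped each other, and C2 and Cfb came last at 6.47 ± 1.58 and 1.22 ± 0.46 TPM. In castrated samples the mean was highest for C3, at 795 ± 633 TPM (SD, n = 3), with C1qa at 595 ± 265, C1qc at 533 ± 289 and C1qb at 497 ± 237, all with overlapping ranges. That order rests on castrated replicate 3, since C3 was at 321 and 550 TPM in castrated replicates 1 and 2, below each C1q chain in both. C4b at 109 ± 53.2, C3ar1 at 99.7 ± 74.1 and Cfp at 94.1 ± 44.5 TPM were likewise not separated, whereas C2 at 9.80 ± 1.14 lay below them and Cfb at 2.81 ± 1.56 below C2. Together the 9 genes took 0.155%, 0.305% and 0.436% of all counts in castrated libraries and 0.0719% and 0.0880% in intact libraries. C3 made up 76.5% of these counts in castrated replicate 3 and between 38.2% and 51.5% in the other 4 samples.

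By the likeness of their centred log2 CPM profile over the 5 samples, the genes outside all lists used here nearest to the mean of the C1q chains were Ankrd33b, Tnmd, H2-D1, Ccl9 and Ifi27l2a, with root mean square differences of 0.10, 0.17, 0.18, 0.19 and 0.19. H2-D1, an MHC class I heavy chain, measured 577, 1100 and 579 CPM in castrated samples against 360 and 293 CPM in intact ones. Ccl9, a chemokine, measured 129, 276 and 106 CPM against 60.1 and 50.5 CPM. Nearest to C3 were C1qtnf9, Togaram2, Itgb7, Nxph3 and 9530077C05Rik, at 0.14, 0.16, 0.16, 0.16 and 0.19. Itgb7, an integrin subunit of leukocytes, had 5.53, 12.0 and 25.2 CPM against 2.92 and 4.07 CPM. These genes were found by searching all tested genes outside the complement and marker lists, so the likeness is a description.

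Beyond these 9, a list of 43 other complement genes was read from the table, of which 33 passed the filter on low counts. Of these 33, 26 had a log2 fold change above 0 and 7 below, with a median of 1.59, against 47.9% of all tested genes above 0. Among the 26, Cfd, Cr2, Mbl2, Vtn, Colec11 and C8g were under 1 CPM in both intact samples and passed the filter only through castrated samples. Their place among the 26 and in the median is therefore no support for a difference. Every castrated sample lay above both intact samples for 13 and below both for 2 (C4a and Cd46), against 17.8% and 15.3% of all tested genes. edgeR's quasi-likelihood test and limma voom called 0 at an adjusted p under 0.05. The likelihood ratio test called 2 higher (Cfd and Cr2) and 2 lower, against 1.89% and 0.636% of all tested genes. Cfd and Cr2 had 0 counts in both intact libraries and passed the filter only through castrated samples, so their calls were not taken as support. DESeq2 called 8 higher (C5ar1, C5ar2, C6, Cfd, Cr2, Fcna, Itgb2 and Serping1) and 2 lower, against 4.81% and 1.96%. The lower calls of both tests were C1rb and C1s2, which rest on intact replicate 2. At an unadjusted p under 0.05, 13 were higher and 3 lower, against 8.74% and 6.28% of all tested genes. Among the 13, Cfd, Cr2, Mbl2, Vtn and Colec11 were under 1 CPM in both intact samples. They passed the filter only through castrated samples, so their place in the counts of higher genes is no support for a difference. With a log2 fold change above 1 required as well, 13 were higher against 7.66%, 8 of the 28 tested without castrated replicate 3 against 4.09%, and 6 of the 32 tested without intact replicate 2 against 6.34%.

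**Figure D3:**
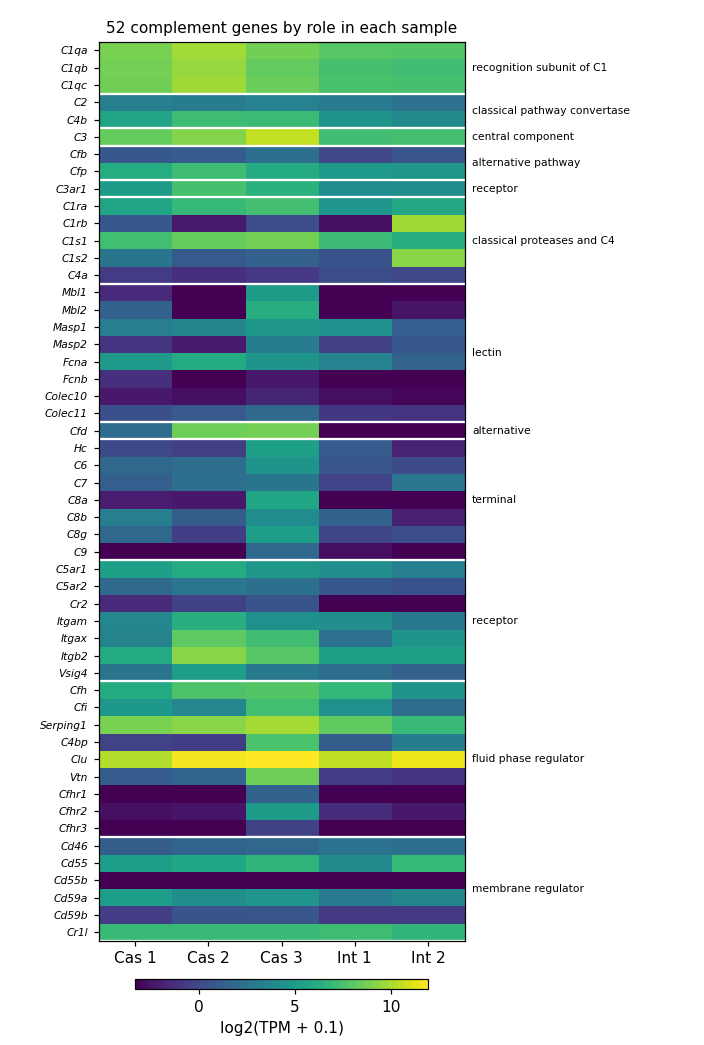
Heatmap of log2(TPM + 0.1) (color scale) for the 9 complement genes and the other 43, in rows by role, in castrated replicates 1 to 3 (Cas) and intact replicates 1 and 2 (Int). Rows such as C8a, Vtn and C4bp are brightest in castrated replicate 3, C1rb and C1s2 in intact replicate 2, and Cfd in castrated replicates 2 and 3.

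The proteases that C1q activates differed by copy. C1ra was at 56.5, 137 and 197 CPM in castrated samples against 30.1 and 83.8 CPM in intact samples, overlapping between groups. It had a log2 fold change of 1.14 ± 0.70 (SE) and an edgeR adjusted p of 0.481. C1s1, encoding the C4-cleaving protease C1s, was at 205, 397 and 556 CPM in castrated samples against 174 and 118 CPM in intact samples, with a log2 fold change of 1.40 ± 0.48 (SE) and an edgeR adjusted p of 0.309. The second copies of the protease genes were counted almost only in intact replicate 2, with 21531 counts of C1rb and 18593 of C1s2 there against at most 44 and 195 in the other 4 samples. Their log2 fold changes of -9.10 and -6.78 became 4.14 and 1.41 without that library, which also held the secretory transcripts. C4a had a log2 fold change of -1.29 ± 0.49 (SE), opposite in sign to C4b.

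Of the 8 lectin pathway genes, 5 passed the filter on low counts. Fcna, the ficolin of macrophages, measured 16.5, 36.6 and 13.2 CPM in castrated samples against 5.89 and 1.88 CPM in intact samples, a log2 fold change of 2.52 ± 0.72 (SE) with an adjusted p of 0.292 in edgeR and 0.0150 in DESeq2. As each sample was left out it ranged from 1.92 to 3.48, the highest without intact replicate 1. Colec11, a soluble collectin, was at 0.75, 1.11 and 2.29 CPM against 0.28 and 0.31 CPM, with an edgeR adjusted p of 0.316. It was highest in castrated replicate 3 and did not pass the filter on low counts without castrated replicate 2 or without castrated replicate 3. Mbl2, a mannose-binding lectin made in liver, had 775 counts in castrated replicate 3, 35 in castrated replicate 1 and at most 1 in the other 3 samples.

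Cfd, encoding factor D or adipsin, the protease that cleaves factor B and a major product of adipocytes, had 0 counts in both intact libraries and 48, 2790 and 3461 counts in castrated replicates 1 to 3. Set against 3 counts over both intact libraries, the castrated mean of 105.9 ± 90.9 CPM (SD, n = 3) was at least 1568-fold higher, and the lowest castrated sample at least 25.4-fold higher. The adjusted p was 0.290 in edgeR's quasi-likelihood test, 0.000102 in DESeq2 and 0.699 in limma voom. Cfd passed the filter on low counts only through castrated samples, so these p-values were not taken as support. The 10 adipocyte markers summed to 103, 416 and 438 CPM in castrated samples and 116 and 99.8 CPM in intact samples. The defining marker Adipoq, encoding adiponectin, was at 0.54, 67.6 and 68.4 CPM against 0 and 0.09 CPM, high in the same libraries as Cfd, and Pnpla2 was the most abundant of the list. The part of adipocyte content in the Cfd difference was not tested.

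Of the terminal components, C6, which joins the membrane attack complex, was at 4.28, 4.96 and 28.9 CPM in castrated samples against 1.90 and 1.49 CPM in intact samples, with a log2 fold change of 2.89 ± 1.06 (SE), an edgeR adjusted p of 0.318 and a log2 fold change of 1.44 without castrated replicate 3. C8a, the most abundant of the terminal genes per length by its mean over all samples, owed that rank to castrated replicate 3, with 1594 counts there and at most 6 elsewhere, and it did not pass the filter on low counts.

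All 7 of the other receptor genes had a log2 fold change above 0, and 5 had every castrated sample above both intact ones, against 47.9% and 17.8% of all tested genes. Cr2 is in both counts but passed the filter only through castrated samples, so its place there is no support for a difference. Of the 14 macrophage markers, 14 were above 0 and 12 had every castrated sample above both intact ones. Their part in the receptor differences was not tested. C5ar1, the C5a receptor of neutrophils and macrophages, measured 44.3, 72.4 and 30.3 CPM in castrated samples and 19.2 and 12.6 CPM in intact samples, and its log2 fold change was 1.61 ± 0.45 (SE). C5ar2, the second C5a receptor, was at 5.78, 9.34 and 7.52 CPM against 2.55 and 2.41 CPM, with a log2 fold change of 1.58 ± 0.41 (SE). Both had an adjusted p of 0.290 in edgeR, and DESeq2 gave 0.0280 for C5ar1 and 0.00721 for C5ar2. Itgb2, the common β chain of complement receptors 3 and 4, was at 80.1, 730.4 and 318.6 CPM in castrated samples against 47.7 and 58.6 CPM in intact samples, with a log2 fold change of 2.81 ± 0.96 (SE), an edgeR adjusted p of 0.309 and a log2 fold change of 1.88 without castrated replicate 2. Cr2, complement receptor 2 of B cells and follicular dendritic cells, had 22, 41 and 95 counts after castration and none in either intact sample, at least 11.6-fold higher in the lowest castrated sample against 3 counts over both intact libraries. The 4 B cell markers, led by Cd79a, summed to 9.46, 57.3 and 68.2 CPM against 1.02 and 3.50 CPM, lowest in castrated replicate 1 among the castrated samples, as for Cr2. Their part in the Cr2 difference was not tested.

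Among the regulators, Serping1, encoding the C1 inhibitor, was at 365, 459 and 735 CPM in castrated samples and 226 and 118 CPM in intact samples. The groups did not overlap, and the log2 fold change was 1.59 ± 0.44 (SE), with an adjusted p of 0.290 in edgeR and 0.0202 in DESeq2. This log2 fold change was 1.26 without castrated replicate 3 and 1.21 without intact replicate 2. Clu, encoding clusterin, an inhibitor of the membrane attack complex, was the most abundant fluid phase regulator and gave 926, 2457 and 3052 CPM against 1058 and 2711 CPM. Its groups overlapped fully, with a log2 fold change of 0.14 ± 0.74 (SE) that turned to -0.19 without castrated replicate 3 and -0.40 without intact replicate 1, and was 1.03 without intact replicate 2. Vtn, encoding vitronectin, had 5782 counts in castrated replicate 3 and between 8 and 43 elsewhere, and its log2 fold change of 7.92 was 2.26 without that library. Of the 4 membrane regulators tested, 1 had a log2 fold change above 0 and 3 below. Cd59a, a blocker of the membrane attack complex, was at 29.3, 15.1 and 19.7 CPM against 6.26 and 11.8 CPM, with a log2 fold change of 1.19 ± 0.46 (SE) and an edgeR adjusted p of 0.332. Cd46, encoding a cofactor for the breakdown of C3b and C4b, was at 1.82, 2.37 and 2.88 CPM against 4.55 and 4.73 CPM, with a log2 fold change of -0.999 and an unadjusted p of 0.0583 in edgeR, which misses the threshold. Cr1l, encoding the rodent regulator Crry, was nearly level at 106, 102 and 105 CPM in castrated samples and 116 and 103 CPM in intact samples, with a log2 fold change of -0.09 ± 0.16 (SE).

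**Figure D4:**
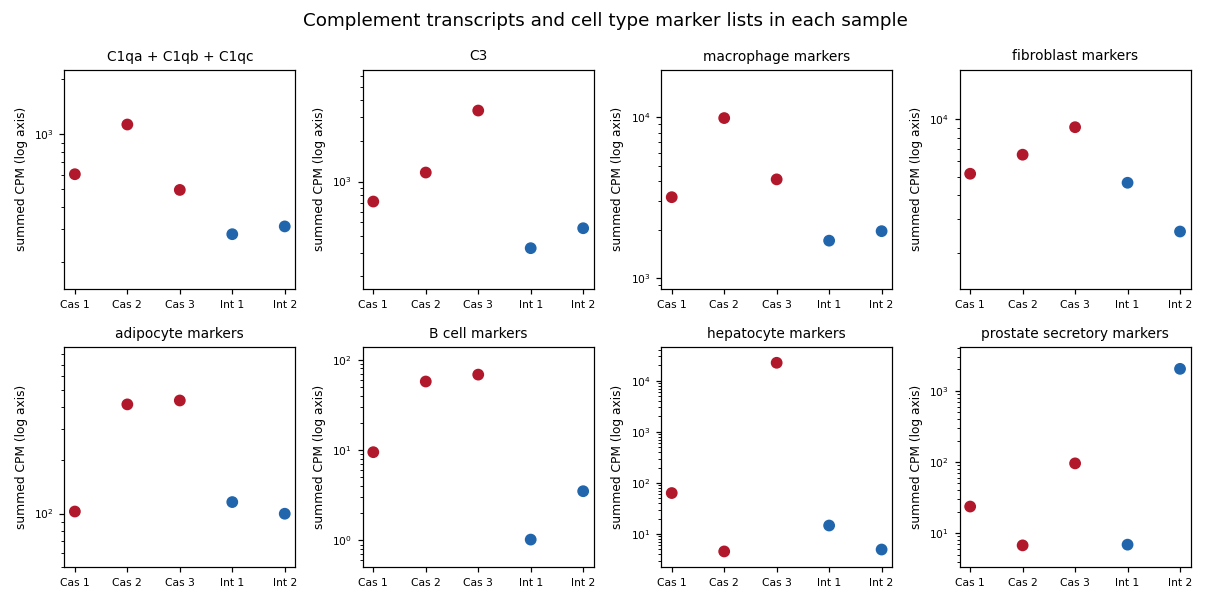
Summed CPM (vertical log axes) of the C1q chains, C3 and 6 marker lists in castrated replicates 1 to 3 (Cas, red) and intact replicates 1 and 2 (Int, blue). Hepatocyte markers stand at 22515 CPM in castrated replicate 3 and prostate secretory markers at 2036 CPM in intact replicate 2, while C1q and macrophage markers peak in castrated replicate 2.

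Of the remaining marker lists, smooth muscle alone did not overlap between groups. The 8 smooth muscle markers, led by Acta2, summed to 423, 711 and 668 CPM in castrated samples and 255 and 148 CPM in intact samples. The 6 endothelial markers, led by Cdh5, gave 404, 282 and 330 CPM against 448 and 168 CPM. T cell markers, led by Cd4, gave 20.4, 56.0 and 58.6 CPM against 13.6 and 37.9 CPM. Neutrophil markers, led by S100a9, gave 179, 153 and 102 CPM against 89.8 and 114 CPM. The epithelial markers summed to 3310, 2959 and 3862 CPM against 4680 and 2999 CPM, and the prostate secretory markers, led by Tgm4, to 23.7, 6.75 and 95.7 CPM against 6.91 and 2036 CPM. With castrated replicate 3 and intact replicate 2 both left out, the median log2 fold change of the 9 complement genes was 1.75, and 3 of them (C1qb, C3 and Cfp) were past the unadjusted threshold, against 3.95% of all genes tested in that fit.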

How the data were processed

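RNA was extracted from prostate tumors of castrated and intact TripleTg mice (3 and 2 samples), and libraries were made with ribosomal RNA depletion and sequenced as paired ends. Per the submitters' processing notes, Trimmomatic 0.39, STAR 2.7.9, HTSeq 2.0.2 and mm10 were used, and the authors deposited raw read counts per gene, with gene lengths and positions. Whether counting used strand is not given in the sources used here. Groups were taken from the sample labels. From the deposited counts, CPM was computed over the library total and TPM from the deposited gene length. Genes with CPM above 1 in at least 2 samples (14612) were fitted with edgeR 4.0.16 (TMM, quasi-likelihood F-test, Benjamini-Hochberg over all tested genes) in R 4.3.3. A call was an adjusted p under 0.05 with an absolute log2 fold change above 1, and SE was the log2 fold change divided by the root of F. Thresholds and tool follow the study's methods, which name TPM as input. DESeq2 1.42.0, edgeR's likelihood ratio test, limma voom (limma 3.58.1), other scalings and filters, TPM input, each sample left out and a replicate block were alternatives. An older quasi-likelihood fit, and leaving out castrated replicate 3 with intact replicate 2, were added after seeing the data. The 9 genes and all lists were chosen with earlier results of these data known. Other genes were named by rule. They were pathway genes at an unadjusted p under 0.05, the most abundant gene per role (by length) and per marker list, markers at 0 throughout, and the 5 nearest profiles to C1q and to C3 (log2 CPM with a prior count of 2). Adipoq, C1ra, C4bp, C8g, Cd46, Col1a1, Col1a2, Col3a1 and Ctss were named after their values were seen. Promoters are RefSeq sequences of GRCm38.p6, which were matched for 5 of the 9 genes by symbol. The smallest chi-square per gene between libraries of a group was 134, so no library was a repeat of another.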

Additional observations from a re-analysis of the deposited data

How the results depend on the processing

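All 153 log2 fold changes of the 9 complement genes under the alternatives kept their direction. Of 449 single gene values in all, 423 kept their direction and side of the threshold, 20 passed it under DESeq2 or the likelihood ratio test, and 6 changed sign. Calls at an adjusted p under 0.05 numbered 0 in edgeR's quasi-likelihood test. With DESeq2 they were 5 of the 9 complement genes, 10 of the other complement genes and 989 of all genes, and with the likelihood ratio test 1, 4 and 369. At the unadjusted threshold limma voom gave 716 of all genes higher, with 8 other complement genes higher and 0 lower. As each sample was left out, the unadjusted count ranged from 1 to 7 for the 9 genes, from 582 to 1588 for all genes higher, and from 6 to 13 higher and 0 to 2 lower for the other complement genes, while adjusted calls ranged from 0 to 1 over all genes. With castrated replicate 3 and intact replicate 2 both left out these were 3, 552, 4 and 0. The log2 fold change of Clu ranged from -0.40 to 1.03 over the left-out samples (-0.19 without castrated replicate 3), that of C1rb from -10.1 to 4.14 and that of C1s2 from -7.76 to 1.41, and C1s2 was 1.61 with both libraries left out. Same-numbered castrated and intact samples share only a number, and their deviations from the group means correlated at 0.15 (replicate 1) and -0.05 (replicate 2). A replicate block gave 8 other complement genes higher and 1 lower and turned Clu to -0.19. The cause of these shifts was not tested. With 3 and 2 samples, the spread between samples (common dispersion 0.238) limits the precision of the 9 genes more than counting depth, also for Cfb, which had the lowest count of the 9, 22.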
